A study of Mus musculus with 13 samples.

Results

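The 10 genes described here are the p53 gene Trp53, 5 genes that act on p53 or respond to it (Mdm2, Cdkn1a, Ccng1, Bbc3 and Bax) and 4 further genes for inhibitors of cyclin-dependent kinases (CDKs), namely Cdkn1b, Cdkn1c, Cdkn2a and Cdkn2c. They were taken by name, 10 of the 48795 genes of the deposited table, and followed in the brains of 13 mice at postnatal day 11. The tissue was the right hemisphere, from which cerebellum and olfactory bulb had been removed. The 5 nlsYAP5SA mice (NexCre +/- YAP5SAnls +/-) carried the NEX-Cre allele together with the nlsYAP5SA transgene, a phosphomutant YAP1 with a nuclear localisation signal behind a floxed STOP. The 5 control mice (NexCre -/- YAP5SAnls +/-) carried the transgene without Cre, and the 3 C57BL/6 mice were wild type (WT). All mice had the C57BL/6J strain background, and control and nlsYAP5SA mice were littermates from more than one mating. The labels do not give the mating of each mouse, so it is no term in the fits. Cre is driven by NEX (NeuroD6) in neuronal precursors, so only a share of the cells in a hemisphere can express the transgene. In such bulk tissue, a change in the number of cells of a type cannot be told apart from a change in RNA per cell.

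p53 is a transcription factor that is stabilised by DNA damage and by oncogene activity, and that arrests the cell cycle or starts apoptosis through its target genes. MDM2 is the ubiquitin ligase that keeps p53 low and is itself encoded by a p53 target. CDK inhibitors fall into a CIP/KIP family (Cdkn1a, Cdkn1b and Cdkn1c, for p21, p27 and p57), which binds cyclin and CDK complexes broadly, and an INK4 family (Cdkn2a, Cdkn2b, Cdkn2c and Cdkn2d), which binds CDK4 and CDK6. The Cdkn2a locus is unusual in that separate first exons give the INK4 inhibitor p16Ink4a and the unrelated protein p19Arf, which blocks MDM2. In the developing brain, CIP/KIP proteins accompany the exit of progenitors from the cell cycle.

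The transgene and the libraries were checked first. All 6 genes used to check YAP1 activity were higher in nlsYAP5SA than in control mice, among them the YAP1 target Cyr61 with a log2 fold change of 2.48 and Yap1 itself with 0.23. Totals lay between 20871566 and 25524349 estimated counts per sample. Y-linked transcripts were present in 5 of 5 control, 2 of 5 nlsYAP5SA (replicates 3 and 4) and 2 of 3 C57BL/6 mice (replicates 1 and 3), so sex was not balanced. The choroid plexus marker Ttr lay between 0.78 and 275 CPM over the 13 mice, with high and low samples in every group. Summed markers of microglia (391 to 513 CPM in nlsYAP5SA, 275 to 347 in control mice), astrocytes (2516 to 2921 against 1539 to 1864) and neural progenitors (201 to 259 against 143 to 158) did not overlap between these groups, and neuron markers were lower (3390 to 3806 against 3814 to 4106). Of these marker lists, 5 of 6 microglial, 4 of 6 astrocytic and 3 of 6 progenitor genes were called higher and 1 of 6 neuronal genes, Neurod6, was called lower. Neurod6 fell from 97.2 to 49.2 CPM between the group means. In the paper the Cre allele is one of Neurod6 itself, and only nlsYAP5SA mice carried it. The part of that allele in the fall was not tested. The gap between the neuron ranges, 3806 to 3814 CPM, was smaller than this fall. The other neuronal markers had log2 fold changes from -0.02 to -0.20 and were not called. Most of the progenitor sum's rise was Vim, from 51.9 to 132 CPM between the group means; Hopx and Pax6 were also called higher, while Sox2 (log2 fold change 0.10), Nes (-0.23) and Eomes (-0.10) were not called. The other lists had 2 of 6 endothelial markers called lower, 1 of 5 mural markers called higher and 2 lower, 1 of 4 oligodendrocyte precursor markers called lower, and 1 of 6 choroid plexus and 1 of 5 ependymal markers called higher. Of 5 oligodendrocyte markers edgeR called 0, with 4 at an unadjusted p under 0.05. The 6 neuronal markers summed to between 3390 and 4112 CPM over the 13 samples.

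Rounded estimated counts went into edgeR's quasi-likelihood test, and a gene was called where its p, adjusted by Benjamini and Hochberg's method over all genes in the fit, was at most 0.05. Between nlsYAP5SA and control mice, 3 of the 10 genes were called, all higher: Cdkn2a, Cdkn1c and Cdkn1b. Of all 16315 genes tested, 10.8% were called, 7.36% higher and 3.44% lower. Trp53, Mdm2, Cdkn1a, Ccng1, Bbc3, Bax and Cdkn2c did not pass the test. The median log2 fold change was 0.0614 over the 10 genes and -0.0054 over all genes tested. Of the calls over all genes, 68.1% were higher, but this share was 42.7% with an offset for GC content and length from an ordinary loess fit and 88% with the Y-linked level as a covariate. Levels are given as CPM, read counts relative to TMM-scaled library size over the 13 samples, and values by sample are in the order of the replicate numbers.

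**Figure D1:**
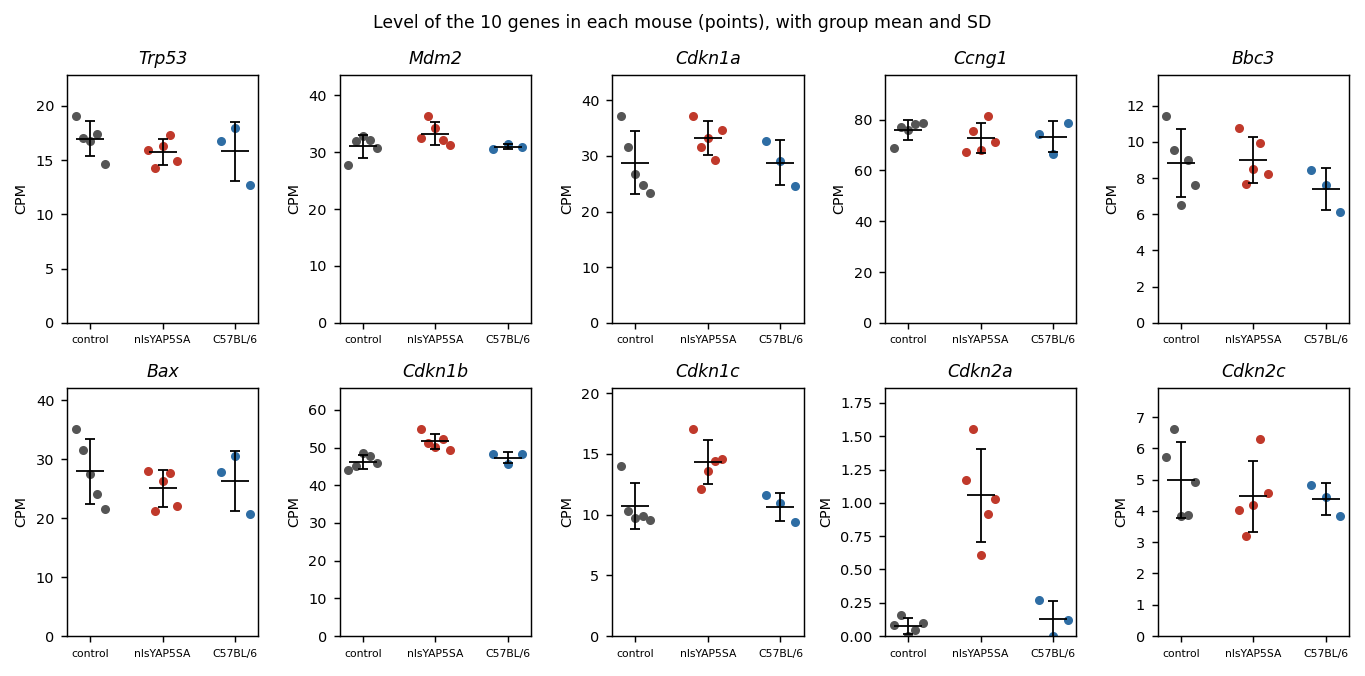
CPM (vertical axes, from 0) of the 10 genes in each mouse, as points from left to right in replicate order within control (n = 5), nlsYAP5SA (n = 5) and C57BL/6 (n = 3), with the group mean (bar) and SD (error bar). Cdkn2a was at 0.61 to 1.55 CPM in nlsYAP5SA mice and at 0 to 0.27 CPM in the other mice, whereas the groups overlapped for most other genes.

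Cdkn2a rose from near absence. Its rounded counts were 2, 4, 0, 1 and 2 in control mice, 26, 33, 14, 21 and 22 in nlsYAP5SA mice and 6, 0 and 3 in C57BL/6 mice. Every nlsYAP5SA mouse stood above all 8 other mice. In CPM this was 0.075 ± 0.059 (SD, n = 5) in control, 1.06 ± 0.35 (SD, n = 5) in nlsYAP5SA and 0.13 ± 0.13 (SD, n = 3) in C57BL/6 mice. A count of 0 allows up to 3 counts, or 0.125 CPM in control replicate 3 and 0.144 CPM in C57BL/6 replicate 2. The fitted log2 fold change against control was 3.70 (SE 0.45), with an adjusted p of 0.000204 by edgeR. Summed over mice, 116 counts in nlsYAP5SA and 9 in control mice gave a ratio per read of 13.8, with an exact 95% interval of 7.04 to 31.0 that covers counting error only. The gene passed the filter on low counts through the nlsYAP5SA group alone, so passing it already required higher counts there. Fitted with no filter, the log2 fold change was 3.70 (SE 0.47, adjusted p = 5.33e-05 by edgeR), and a minimum of 10 counts in every sample removed the gene. Among the genes tested, 6.49% had all nlsYAP5SA mice above all controls. In the 2 nlsYAP5SA mice with Y-linked transcripts against the 5 controls, the log2 fold change was 3.24 (adjusted p = 0.027 by edgeR). Summed markers of microglia and astrocytes, and 3 of 6 progenitor genes (Vim, Hopx and Pax6), were higher in the same mice. The other progenitor genes, Sox2 (log2 fold change 0.10), Nes (-0.23) and Eomes (-0.10), were not called. The part of these cell types in the rise of Cdkn2a was not tested. Cdkn2a was the scarcest of the 10 genes in nlsYAP5SA mice, at 0.90 CPM per kilobase of exon.

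The nlsYAP5SA mice were also compared with the C57BL/6 mice; the nlsYAP5SA samples are those of the comparison above, so the result is not independent of it. The log2 fold change of Cdkn2a was 2.93 (SE 0.59) with an adjusted p of 0.0194 by edgeR, the single call among the 10 genes, where 6.38% of all genes tested were called. Here too the gene passed the filter through the nlsYAP5SA group alone, and with no filter the log2 fold change was 2.94 (SE 0.57, adjusted p = 0.00909 by edgeR). All nlsYAP5SA mice were above all C57BL/6 mice for 3 of the 10 genes, Cdkn2a, Cdkn1b and Cdkn1c, beside 8.71% of all genes. The ratio per read was 7.90, with an exact 95% interval of 4.02 to 17.7. Without C57BL/6 replicate 1, which held 6 of the 9 counts of its group, the log2 fold change was 3.90 (adjusted p = 0.0308 by edgeR). The call was lost with the mice that had Y-linked transcripts alone, where the log2 fold change was 1.94 (adjusted p = 0.418 by edgeR), and with the replicate number as a block, where it was 2.99 (adjusted p = 0.236). Between C57BL/6 and control mice, Cdkn2a was below the filter, and an exact two-sided permutation test of log2 (CPM + 0.5) gave p = 0.536 for a difference of 0.12.

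Cdkn2a (ENSMUSG00000044303) lies on the minus strand of chromosome 4 (GRCm38, 89274471 to 89294653), with 4 blocks of exons and 1172 exonic bases in the annotation. Counts were summed over the gene, so transcripts for p16Ink4a and p19Arf were not separated. The 2 start regions, each 300 bases from 250 before to 50 after a RefSeq start (GRCm38.p6), are shown because they belong to these alternative first exons, followed by that of the INK4 neighbour Cdkn2b, which also rose. Capitals mark a match to the E2F motif TTTCCCGC, the only match among the 3 motifs searched on both strands in these windows; the others were the TEAD core GGAATG and the decamer repeat of the p53 consensus.
Cdkn2a, upstream start, chr4:89294570-89294869, minus strand: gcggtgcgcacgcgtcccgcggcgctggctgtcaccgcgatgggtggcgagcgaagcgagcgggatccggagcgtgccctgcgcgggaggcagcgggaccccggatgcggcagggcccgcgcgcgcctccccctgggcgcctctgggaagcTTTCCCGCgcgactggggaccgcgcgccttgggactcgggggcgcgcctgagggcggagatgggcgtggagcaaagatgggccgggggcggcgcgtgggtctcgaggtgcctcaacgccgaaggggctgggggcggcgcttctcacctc
Cdkn2a, downstream start, chr4:89282143-89282442, minus strand: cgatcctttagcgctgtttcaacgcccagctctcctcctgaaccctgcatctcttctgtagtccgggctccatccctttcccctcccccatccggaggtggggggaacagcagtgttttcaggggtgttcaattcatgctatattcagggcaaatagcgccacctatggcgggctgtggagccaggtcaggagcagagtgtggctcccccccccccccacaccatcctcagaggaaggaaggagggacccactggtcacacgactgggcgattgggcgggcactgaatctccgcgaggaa
Cdkn2b, chr4:89310983-89311282, minus strand: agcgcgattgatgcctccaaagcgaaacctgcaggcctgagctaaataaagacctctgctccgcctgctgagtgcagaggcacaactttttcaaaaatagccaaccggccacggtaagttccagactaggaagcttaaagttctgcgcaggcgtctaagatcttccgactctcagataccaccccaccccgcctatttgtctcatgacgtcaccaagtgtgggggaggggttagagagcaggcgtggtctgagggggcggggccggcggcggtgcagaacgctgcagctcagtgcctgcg
The E2F match lay 99 bases before the upstream start. Of 32851 mouse promoter windows of this length, 1.07% held this E2F motif, 14.7% the TEAD core and 8.36% the p53 decamer. A match or its absence in such a window describes letters alone.

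Cdkn2b, which encodes the INK4 inhibitor p15Ink4b next to Cdkn2a, was measured as one of the other INK4 genes. Its level was 0.94, 1.06, 0.71, 0.84 and 0.66 CPM in control mice, 3.52, 2.31, 2.38, 2.22 and 2.57 CPM in nlsYAP5SA mice and 0.85, 1.29 and 1.01 CPM in C57BL/6 mice. All nlsYAP5SA mice were above all others. The log2 fold change against control was 1.61 (SE 0.19; adjusted p = 0.000163 by edgeR). Cdkn2d, for p19Ink4d, had a log2 fold change of -0.23 and did not pass (adjusted p = 0.180). Cdkn2c, for p18Ink4c, was at 5.72, 6.61, 3.83, 3.86 and 4.91 CPM in control mice, 4.02, 3.20, 4.20, 6.30 and 4.59 CPM in nlsYAP5SA mice and 4.84, 4.45 and 3.83 CPM in C57BL/6 mice. The groups overlapped over most of their range, and the log2 fold change was -0.16 (SE 0.20; adjusted p = 0.661 by edgeR). Within INK4, then, the genes of the Cdkn2a and Cdkn2b locus were called higher and Cdkn2c and Cdkn2d were not called; with the ordinary loess offset for GC content and length Cdkn2d was called lower (log2 fold change -0.21, adjusted p = 0.0191 by edgeR), and no test compared their changes with each other.

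**Figure D2:**
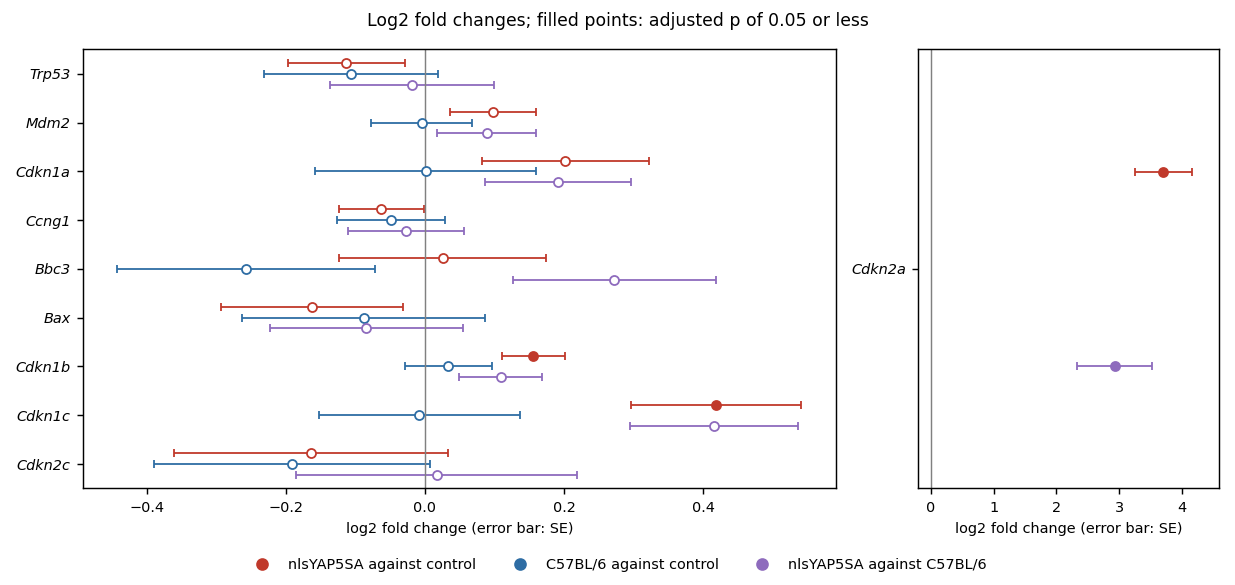
Log2 fold change (horizontal axes; error bars are SE) of the 10 genes in 3 comparisons, with Cdkn2a on its own axis and filled points for an adjusted p of 0.05 or less. Cdkn2a (3.70 and 2.93) lies far outside the range of the other genes, of which Cdkn1c (0.42) and Cdkn1b (0.16) are called in nlsYAP5SA against control.

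In the CIP/KIP family, Cdkn1c and Cdkn1b were called by a narrow margin and Cdkn1a was not. Cdkn1c, an imprinted gene for p57Kip2, was at 14.0, 10.3, 9.71, 9.86 and 9.53 CPM in control mice, 17.0, 12.1, 13.6, 14.4 and 14.6 CPM in nlsYAP5SA mice and 11.6, 10.9 and 9.36 CPM in C57BL/6 mice. Control replicate 1 stood inside the nlsYAP5SA range, and the other 4 controls and all C57BL/6 mice stood below it. The log2 fold change against control was 0.42 (SE 0.12; adjusted p = 0.0471 by edgeR), and without control replicate 1 it was 0.54 (adjusted p = 0.00329). Cdkn1c was called under 10 of 22 alternatives, with log2 fold changes from 0.35 to 0.54. Among the alternatives that lost the call were the Y-linked and Ttr covariates and the mice that had Y-linked transcripts alone. The largest adjusted p was 0.407 by edgeR. Against C57BL/6 mice its log2 fold change was also 0.42 (SE 0.12), without a call (adjusted p = 0.0751). Cdkn1c (ENSMUSG00000037664) lies on the minus strand of chromosome 7 (GRCm38, 143458339 to 143461050), and an antisense gene, Gm44732, overlaps 625 of its exonic bases but had 0 counts in the 13 samples.

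Cdkn1b, for p27Kip1, was at 43.9, 45.2, 48.5, 47.8 and 46.0 CPM in control mice, 54.9, 51.2, 50.2, 52.3 and 49.5 CPM in nlsYAP5SA mice and 48.2, 45.5 and 48.3 CPM in C57BL/6 mice. All nlsYAP5SA mice were above all others, although the lowest of them, at 49.5 CPM, was close to the highest control at 48.5 CPM. The log2 fold change was 0.16 (SE 0.05; adjusted p = 0.0461 by edgeR), a fold of 1.11. Of 22 alternatives, 2 kept the call, DESeq2's Wald test (adjusted p = 0.0346) and the fit without control replicate 3 (adjusted p = 0.0479), and the largest adjusted p was 0.550. Its log2 fold change stayed above 0 in all of them, from 0.089 to 0.17. Against C57BL/6 mice it was 0.11 (SE 0.06; adjusted p = 0.333). Cdkn1b (ENSMUSG00000003031) lies on the plus strand of chromosome 6 (GRCm38, 134920401 to 134925513).

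Cdkn1a, for p21, is both a CIP/KIP inhibitor and the p53 target most used as a readout of p53 activity. Its level was 37.2, 31.6, 26.8, 24.8 and 23.3 CPM in control mice, 37.2, 31.6, 33.2, 29.3 and 34.7 CPM in nlsYAP5SA mice and 32.7, 29.2 and 24.6 CPM in C57BL/6 mice. Controls spread over 1.59 times from lowest to highest, and the nlsYAP5SA mice lay within that range. The log2 fold change was 0.20 (SE 0.12; adjusted p = 0.332 by edgeR), and no alternative called it. Cdkn1a (ENSMUSG00000023067) lies on the plus strand of chromosome 17 (GRCm38, 29090976 to 29100727). Its upstream start region is shown because it holds 2 of the p53 decamers, in capitals, 73 and 51 bases before the start, more than any other of the 14 windows of these genes.
Cdkn1a, upstream start, chr17:29090729-29091028, plus strand: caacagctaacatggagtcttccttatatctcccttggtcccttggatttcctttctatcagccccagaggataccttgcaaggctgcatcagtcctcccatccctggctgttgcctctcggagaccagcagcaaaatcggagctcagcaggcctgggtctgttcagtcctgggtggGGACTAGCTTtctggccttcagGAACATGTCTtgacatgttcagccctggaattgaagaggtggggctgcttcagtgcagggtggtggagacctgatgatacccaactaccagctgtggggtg
The windows of Bax, Mdm2, Ccng1 and Trp53 each held 1 such decamer. RefSeq windows were found for 9 of the 10 genes.

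**Figure D3:**
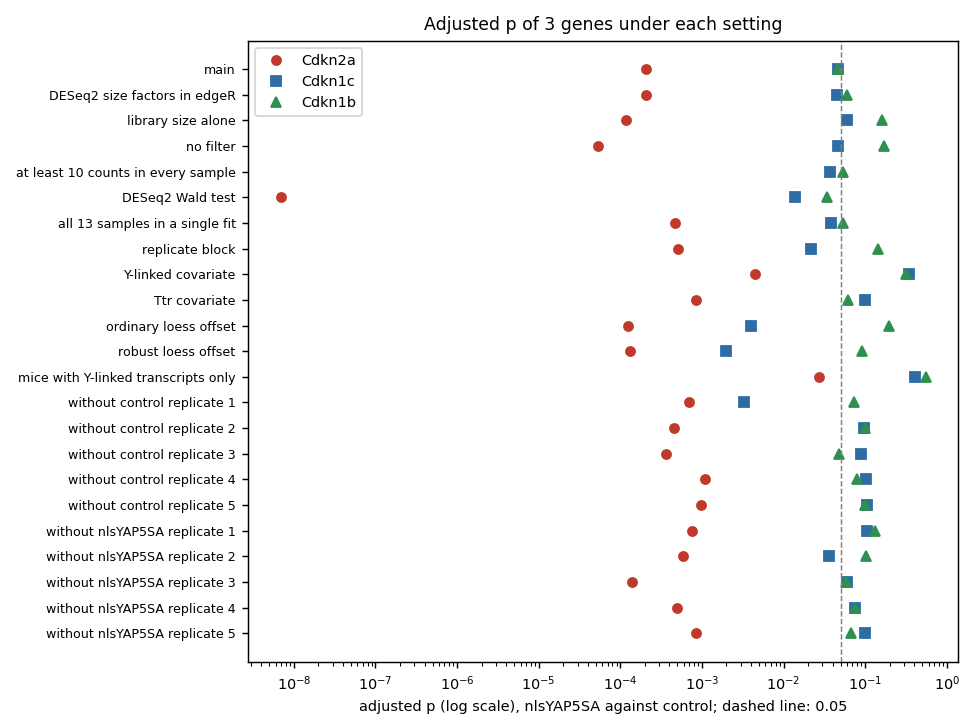
Adjusted p (horizontal axis, log scale; dashed line at 0.05) of Cdkn2a, Cdkn1c and Cdkn1b in nlsYAP5SA against control under the reported fit and each alternative (vertical axis). Cdkn2a lies below 0.05 in the alternatives that kept it (the minimum of 10 counts in every sample removed it), Cdkn1c is below it in 10 and Cdkn1b in 2 of 22 alternatives.

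Trp53 and the other p53-related genes, Mdm2, Ccng1, Bbc3 and Bax, did not pass the test. Trp53 was at 19.1, 17.0, 16.7, 17.5 and 14.6 CPM in control mice, 15.9, 14.3, 16.3, 17.3 and 14.9 CPM in nlsYAP5SA mice and 16.8, 18.0 and 12.7 CPM in C57BL/6 mice. The groups overlapped, and the log2 fold change against control was -0.11 (SE 0.08; adjusted p = 0.447 by edgeR). Trp53 (ENSMUSG00000059552) lies on the plus strand of chromosome 11 (GRCm38, 69580359 to 69591873). p53 is controlled largely at the level of its protein, which these data do not measure. Mdm2 was at 27.7, 31.9, 32.8, 32.1 and 30.8 CPM in control mice, 32.4, 36.4, 34.2, 32.1 and 31.2 CPM in nlsYAP5SA mice and 30.5, 31.5 and 30.9 CPM in C57BL/6 mice. Its log2 fold change was 0.10 (SE 0.06; adjusted p = 0.367 by edgeR), with overlapping groups.

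Ccng1, for the p53-induced cyclin G1, was the most abundant of the 10 genes, with 69.0, 77.1, 76.0, 78.5 and 78.9 CPM in control mice, 67.3, 75.6, 68.1, 81.5 and 71.2 CPM in nlsYAP5SA mice and 74.5, 66.7 and 78.9 CPM in C57BL/6 mice. Its groups overlapped, with a log2 fold change of -0.06 (SE 0.06; adjusted p = 0.581 by edgeR). Bbc3, for the BH3-only protein PUMA, was at 11.4, 9.58, 6.50, 8.98 and 7.65 CPM in control mice, 10.7, 7.67, 8.49, 9.95 and 8.24 CPM in nlsYAP5SA mice and 8.47, 7.61 and 6.13 CPM in C57BL/6 mice. The spread among controls, 1.76 times from lowest to highest, exceeded the difference of the means, with a log2 fold change of 0.03 (SE 0.15; adjusted p = 0.943 by edgeR). Bax, the pore-forming protein of mitochondrial apoptosis, was at 35.1, 31.5, 27.4, 24.1 and 21.5 CPM in control mice, 27.9, 21.2, 26.3, 27.6 and 22.1 CPM in nlsYAP5SA mice and 27.7, 30.6 and 20.6 CPM in C57BL/6 mice. Of the 5 nlsYAP5SA values 4 lay within the control range, with a log2 fold change of -0.16 (SE 0.13; adjusted p = 0.491 by edgeR). Bax shares 192 exonic bases with Gm45808 on the same strand, a gene with 28.7 estimated counts over all samples.

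The C57BL/6 and control groups differ in the transgene without Cre, but the C57BL/6 mice were not littermates of the controls, so transgene and litter cannot be told apart here. None of the 9 genes tested was called by edgeR, all 9 had an adjusted p of 0.999643, and 0 had an unadjusted p under 0.05; DESeq2's Wald test also called 0. Over all genes tested, 0.169% were called. Log2 fold changes ran from -0.26 (SE 0.19) for Bbc3 to 0.03 (SE 0.06) for Cdkn1b.

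Compared per length in control mice, the genes spanned a wide range of levels. Ccng1 (21.6 ± 1.1 CPM per kilobase of exon, SD, n = 5) and Bax (17.7 ± 3.5) led and overlapped each other. Next came Cdkn1b (10.2 ± 0.41) and Cdkn1a (8.09 ± 1.6), which overlapped each other, and then Mdm2 (6.11 ± 0.39), Cdkn1c (5.24 ± 0.92), Trp53 (4.20 ± 0.40) and Bbc3 (4.16 ± 0.89), where each overlapped the next. Cdkn2c (1.86 ± 0.45) lay below these and above Cdkn2a (0.064 ± 0.050), without overlap on either side. Cdkn1b varied by 1.10 times from lowest to highest control.

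In some mice the genes stood apart by GC content. Among the controls, replicate 1 was highest for Trp53, Cdkn1a, Cdkn1c, Bax and Bbc3, whose longest transcripts have a GC content of 53.3% to 65.2%, and lowest for Ccng1, Cdkn1b and Mdm2, at 40.8% to 46.2%. C57BL/6 replicate 3 stood the other way round, lowest for 6 genes of 53.3% to 65.2% GC and highest for Ccng1 and Cdkn1b. With a robust loess offset for GC content and length, the log2 fold change against control was 0.51 for Cdkn1c (adjusted p = 0.00196 by edgeR) and 0.11 for Cdkn1b (adjusted p = 0.0928). The part of GC content in the spread within groups was not tested.

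**Figure D4:**
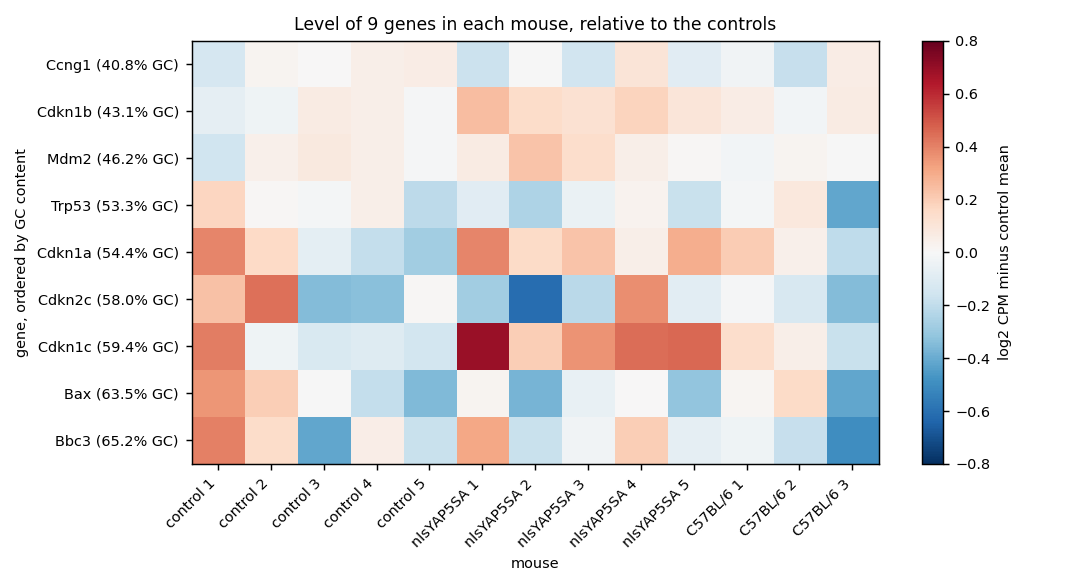
Log2 CPM of 9 genes (rows, ordered by GC content of the longest transcript, in percent) in each of the 13 mice (columns), minus the mean of the controls (colour; red is higher, blue is lower). Control 1 is higher in the rows from 53.3% GC on and lower in the 3 rows up to 46.2%; Cdkn1c is higher in all 5 nlsYAP5SA mice; Cdkn2a is left out because it has counts of 0.

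Other p53 target genes were split. Of 26 listed genes 25 were tested, and 8 were called higher and 2 lower in nlsYAP5SA than in control mice, beside 7.36% and 3.44% of all genes. The median log2 fold change was 0.07. The gene not tested, Gdf15, is named after its values were seen and was removed by the filter on low counts. With no filter its log2 fold change was 3.42 (SE 0.91, adjusted p = 0.0326 by edgeR). Eda2r, a receptor of the TNF receptor superfamily, rose from 0.67 ± 0.29 to 1.61 ± 0.37 CPM (SD, n = 5 in each group; log2 fold change 1.26, SE 0.31, adjusted p = 0.0198 by edgeR). Tnfrsf10b, a death receptor for TRAIL, rose from 1.15 ± 0.25 to 2.13 ± 0.38 CPM, and Pmaip1, for the BH3-only protein NOXA, from 1.28 ± 0.22 to 2.22 ± 0.38 CPM. Trp53inp1 rose from 17.0 ± 1.9 to 24.9 ± 3.5 CPM. For these 4 genes every nlsYAP5SA mouse was above every control, beside 6.49% of all genes tested. The 4 were named as called genes with large changes in this same comparison, so the separation is no separate result. Fas, a further death receptor that is named here after its values were seen, rose from 0.38 ± 0.12 to 1.73 ± 0.24 CPM (log2 fold change 2.17, SE 0.23, adjusted p = 6.93e-05 by edgeR). It passed the filter on low counts through the nlsYAP5SA group alone, and with no filter its log2 fold change was 2.17 (SE 0.26, adjusted p = 2.72e-05 by edgeR). The 2 called lower, also named after their values were seen, were Aen (log2 fold change -0.29) and Tigar (-0.23). The 26 genes summed to 744 to 781 CPM in control and 747 to 773 CPM in nlsYAP5SA mice, so the ranges overlapped. Much of this sum came from abundant genes not called in the reported fit, such as Zmat3 (150 CPM in controls), Plk2 (141) and Ei24 (113). It therefore could not show the rise of scarce genes such as Fas. Over the settings, the number of target genes called ran from 2 to 13. It was 2 with the Y-linked covariate and with the mice that had Y-linked transcripts alone. With the ordinary loess offset for GC content and length it was 13, and Ei24, Plk3 and Zmat3 were then also called lower. Microglia and astrocyte markers moved with the genes called higher, as given above, and their part was not tested.

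**Figure D5:**
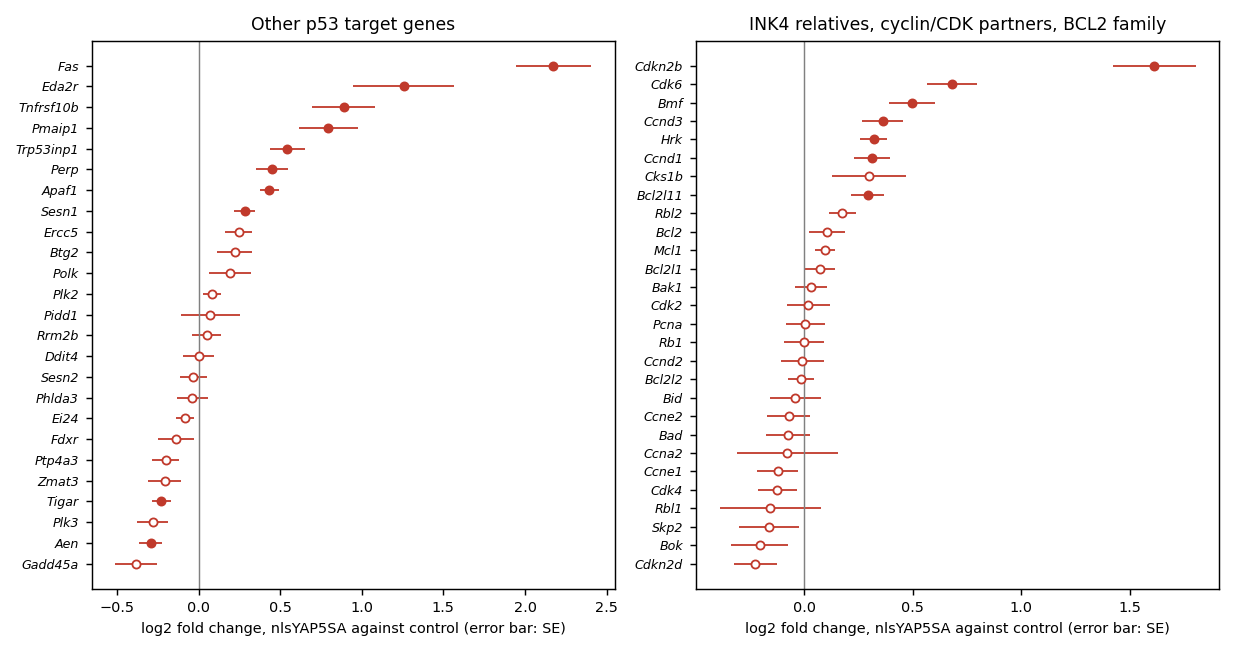
Log2 fold change in nlsYAP5SA against control (horizontal axes; error bars are SE) of the other p53 target genes (left) and of INK4 relatives, cyclin and CDK partners and the BCL2 family (right), with filled points for an adjusted p of 0.05 or less. On the left 8 genes are called higher and 2 lower, and on the right Cdkn2b has the largest change, with a log2 fold change of 1.61.

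None of the 17 p53 regulators and relatives, such as Mdm4 (log2 fold change 0.00), was called by edgeR or under any alternative, DESeq2's Wald test included, and 0 had an unadjusted p under 0.05. Of the 15 partners of the CDK inhibitors, 3 were called higher and 0 lower, beside 7.36% and 3.44% of all genes. This count ran from 0 to 3 over the alternatives: it was 0 with the mice that had Y-linked transcripts alone, and 1 with the Y-linked covariate and without control replicate 2, control replicate 3 or nlsYAP5SA replicate 5. Of the 2 kinases that INK4 proteins bind, Cdk4 was at 56.3 ± 7.7 CPM in control and 51.8 ± 3.3 CPM in nlsYAP5SA mice and did not pass the test (log2 fold change -0.12, adjusted p = 0.436 by edgeR). Cdk6 rose from 12.3 ± 0.54 to 19.8 ± 3.8 CPM (SD, n = 5 each; log2 fold change 0.68, SE 0.12, adjusted p = 0.00214 by edgeR). The D-type cyclins Ccnd3 (log2 fold change 0.36) and Ccnd1 (0.31) rose as well, while Ccnd2 (-0.01) and Rb1 (0.00) did not pass the test. None of 18 mitotic genes was called by edgeR or under any alternative, DESeq2's Wald test included, and 0 had an unadjusted p under 0.05. The counts over all genes are those given with the p53 regulators. Their summed level was 109 to 123 CPM in control and 72.8 to 192 CPM in nlsYAP5SA mice, a range that was wider on both sides. Of 12 BCL2 family genes 11 were tested, and 3 genes for BH3-only proteins were called higher, namely Bmf (log2 fold change 0.50), Hrk (0.32) and Bcl2l11 (0.29), with 0 called lower, beside 7.36% and 3.44% of all genes. No such call was made with the Y-linked covariate or with the mice that had Y-linked transcripts alone.

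The genes whose pattern over the 13 mice was most like each called gene were sought by the root-mean-square difference of log2 (CPM + 0.5), each gene centred on its control mean. For Cdkn2a these were Vim, the intermediate filament vimentin, at 0.21, Parp3 at 0.21 and Pdgfd at 0.21. Vim rose from 51.9 to 132 CPM between the group means. The log2 fold changes of Vim, Parp3 and Pdgfd against control were 1.34, 1.63 and 1.58, below the 3.70 of Cdkn2a. For Cdkn1c they were Pax6, a transcription factor of radial glia, at 0.10, Cotl1 at 0.10 and Cyb5r3 at 0.11. For Cdkn1b they were Slc33a1 at 0.046, Foxj2 at 0.048 and Nop58 at 0.051. Cotl1 was not called against control (adjusted p = 0.058 by edgeR). Neither were Slc33a1, Foxj2 and Nop58 (adjusted p = 0.173, 0.208 and 0.119 by edgeR). The pseudocount of 0.5 flattens the change of Cdkn2a, which lay below 0.5 CPM in all control and C57BL/6 mice.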

How the data were processed

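RNA of the right hemisphere was sequenced in 5 control, 5 nlsYAP5SA and 3 C57BL/6 mice, grouped by the labels. The authors removed adapters with CutAdapt 1.5, aligned to GRCm38 (Ensembl release 86) with STAR and deposited estimated counts per gene from RSEM 1.3.0, which shares ambiguous reads among genes, without normalization. No strand setting is given in the sources used here. All 13 columns were used.

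Estimated counts were rounded, scaled by TMM and filtered by filterByExpr (minimum count 10, minimum total 15). edgeR 4.0.16 in R 4.3.3 gave two-sided quasi-likelihood tests between the groups compared, adjusted over all genes in the fit by Benjamini and Hochberg's method. DESeq2 1.42.0 was an alternative, beside other size factors, other filters, the replicate block, a joint fit of all 13 mice, Y-linked and Ttr covariates, loess offsets for GC content and length (span 0.3) and leaving out each mouse. Mice with Y-linked transcripts alone were an alternative chosen after the data were seen. The fit was tested on simulated data. Positions and exon lengths are from GENCODE M21, a later release than the counts used, and start regions are from RefSeq. The rest used scipy 1.17.1, numpy 2.4.6 and pandas 2.3.3 in Python 3.11.15, and plots matplotlib 3.10.9.

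The genes and lists were chosen with earlier results of these data known. Named genes were all 10 members, up to 4 called genes of each list with the largest change and a mean of at least 1 CPM, and the 3 genes of most similar pattern to each called member; exceptions are stated. Marker lists are reported by their counts. Replicates are separate mice by the study's methods, and the least different pair within a group differed by a chi-square of 5.77 per degree of freedom. Totals of 20871566 to 25524349 counts per sample set the precision; intervals and floors at 95% and 3 counts cover counting error only, since reads are not molecules.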

Additional observations from a re-analysis of the deposited data

Results flagged for a closer look

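Of 20 groups of 5 mice tested for a sample far from the others by Dixon's test, 2 held one, where chance gives about 1 in 20. Cdkn1c in control replicate 1 was at 14.0 CPM, with a gap to the next control of 0.823 of the group's range. Ccng1 in the same mouse was at 69.0 CPM, below the other controls by 0.711 of the range. The GC content that goes with these deviations is given with the members above, and its part was not tested.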

How the results depend on the processing

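Of the 10 genes, 3 were called in nlsYAP5SA against control. DESeq2's Wald test called 3. This count was 2 with DESeq2's size factors, with no filter, with all 13 mice in a single fit, with the replicate block and with both loess offsets, in each case Cdkn2a and Cdkn1c. It was 1 with library size alone, with at least 10 counts in every sample, with the Y-linked covariate, with the Ttr covariate and with the mice that had Y-linked transcripts alone. It was 1 to 2 when each mouse was left out. Cdkn2a was among the calls in each case apart from the filter of 10 counts, which removed it. Against C57BL/6 mice 1 gene was called. This was 0 with the filter of 10 counts and with the Y-linked mice alone, and 2 with DESeq2's Wald test and with both loess offsets. Leaving out each mouse gave 1 throughout. C57BL/6 against control gave 0 under every alternative. Over all genes, 1761 calls became 3082 with the ordinary loess offset, 541 with the Y-linked covariate and 334 with the Y-linked mice alone.

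Replicate numbers did not pair control and nlsYAP5SA samples: same-numbered deviations correlated at -0.315 to 0.312, and 1 of 5 nlsYAP5SA samples was most like the control of its own number. With the replicate block, 1239 genes were called, Cdkn1b was not (adjusted p = 0.143 by edgeR), and Cdkn1c and Cdkn2a were. Against C57BL/6 the block left 0 of the 10 genes called. With the block, uncalled log2 fold changes turned to 0.010 for Mdm2 and -0.14 for Cdkn1a (C57BL/6 against control) and to -0.22 for Cdkn2c (nlsYAP5SA against C57BL/6).

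Other sign changes were all in uncalled log2 fold changes, and the cause was not tested. In nlsYAP5SA against control, Cdkn2c became 0.054 with the Y-linked covariate and 0.066 with the Y-linked mice alone, and Bbc3 ran from -0.071 to 0.14 when a mouse was left out. In C57BL/6 against control, Mdm2 became 0.023 with the Ttr covariate, and Ccng1 0.014 with the Y-linked covariate and 0.015 with the Y-linked mice alone. Cdkn1a there became -0.0020 with DESeq2's size factors, -0.026 with library size alone, -0.010 with no filter, -0.0016 with DESeq2's Wald test, -0.023 with the Y-linked covariate, -0.012 and -0.010 with the ordinary and robust loess offsets and -0.0088 with the Y-linked mice alone. Against C57BL/6, Trp53 in nlsYAP5SA mice became 0.020 with library size alone, 0.016 with the robust offset and 0.18 with the Y-linked mice alone. Ccng1 became 0.0053 with library size alone and 0.0038 with the Y-linked covariate. Bax became 0.0065 and 0.052 with the ordinary and robust offsets and 0.15 with the Y-linked mice alone. When a mouse was left out, ranges in C57BL/6 against control were -0.21 to 0.014 for Trp53, -0.043 to 0.016 for Mdm2, -0.10 to 0.11 for Cdkn1a, -0.12 to 0.015 for Ccng1, -0.21 to 0.044 for Bax and -0.081 to 0.11 for Cdkn1c. In nlsYAP5SA against C57BL/6 they were -0.15 to 0.10 for Trp53, -0.074 to 0.033 for Ccng1, -0.23 to 0.053 for Bax and -0.13 to 0.11 for Cdkn2c.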
